A study of Mus musculus with 6 samples.

Results

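Mitochondrial ribosomal proteins are made from nuclear genes and imported into the mitochondrion, where they join RNAs of the mitochondrial genome to form the mitochondrial ribosome. This ribosome has a small subunit, which reads the messenger RNA, and a large subunit, which joins the amino acids. It makes only the few proteins that the mitochondrial genome encodes, all of them subunits of the respiratory chain and ATP synthase, and brown adipose tissue (BAT) is rich in the mitochondria that hold them. Some of its proteins have a homologue in the bacterial ribosome and others are found in mitochondria only.

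The genes were taken by symbol, as the rows named *Mrpl* or *Mrps* with a number and at most 1 letter from a to d. The rule found 77 of the 47729 genes quantified, and no measured value entered it. Of these, 50 encode proteins of the large subunit, *Mrps18a* and *Mrps30* among them despite their symbols, and 26 encode proteins of the small subunit. *Mrps36* was left out of both classes, because its product has also been described as a component of the alpha-ketoglutarate dehydrogenase complex. A bacterial homologue was assigned to 44 of the proteins, 30 were taken as specific to mitochondria, and *Mrpl55*, *Mrps28* and *Mrps36* were not classed. *Mrps18a* and *Mrps18b* were placed among the 30 although they are paralogues of *Mrps18c*, which was placed among the 44. This split is therefore approximate.

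RNA-Seq was performed on interscapular BAT from 6 male C57BL/6J mice, 3 fed a high-fat diet (HFD) and 3 fed a standard rodent diet (LFD). In the HFD, 45% of the calories came from fat. The mice of both diets were wild type, were housed singly, and received their diet for 4 weeks, from 6 to 10 weeks of age. The sequenced mice were picked within each diet for their greatest, medium and least fat mass, so the spread within a diet includes that choice, and which replicate number stands for which fat mass is not given in the sources used here. Below, HFD 1 to HFD 3 and LFD 1 to LFD 3 are the replicate numbers of the labels.

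The libraries held between 17156991 and 21603487 rounded counts, of which 0.167% to 0.273% fell on the 77 genes. The share of counts on genes of the mitochondrial genome was 22.7%, 16.5% and 8.50% in HFD 1, HFD 2 and HFD 3, and 13.8%, 9.12% and 3.87% in LFD 1, LFD 2 and LFD 3. The dissected tissue was not of 1 cell type. All 18 skeletal muscle markers were detected in every mouse, and their summed level was 25.7 to 401 TPM (a share of all transcripts that takes account of their length) in HFD-fed and 2228 to 15580 TPM in LFD-fed mice. The 12 brown adipocyte markers, all above 0 in every mouse, summed to 6232 to 13544 TPM in HFD-fed and 3626 to 13200 TPM in LFD-fed mice, and *Ucp1*, the uncoupling protein that defines the brown adipocyte, was 796 to 4021 TPM and 11.03 to 443 TPM, respectively. The list did not move as 1, since *Ucp1* had a log2 fold change of 3.67 while *Adipoq*, *Plin1* and *Fabp4*, general adipocyte genes, had -1.19, -0.78 and -0.35. The part of these cell types in the values below was not tested, and in bulk tissue fewer cells of a type and less RNA per cell cannot be told apart.

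All 77 genes were expressed in every mouse and all passed the filter on low counts. A gene had between 155 and 1941 rounded counts in a mouse. Mean levels over the 6 mice ran from 9.91 TPM for *Mrpl11* to 148 TPM for *Mrps21*, a 14.97-fold range, with a median of 38.0 TPM. Although the proteins are built into 1 particle, their RNAs were thus not at 1 level, and the 6 highest genes held 19.9% of the summed level.

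*Mrps21*, which encodes a small-subunit protein with a bacterial homologue, had 128, 162 and 117 TPM in HFD 1 to HFD 3 and 178, 156 and 149 TPM in LFD 1 to LFD 3. *Mrpl30*, of the large subunit, had 124, 144 and 107 TPM in HFD-fed and 201, 128 and 97.5 TPM in LFD-fed mice in the same order. LFD 1 was the highest mouse for both genes, and the diets overlapped for both. The next 4 genes, *Mrpl42*, *Mrpl20*, *Mrpl51* and *Mrpl33*, all of the large subunit, had means of 99.0, 93.2, 91.8 and 90.8 TPM. These 4 means lay closer together than the spread of any of the 4 genes between mice of the same diet, so their order is not resolved here.

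**Figure D1:**
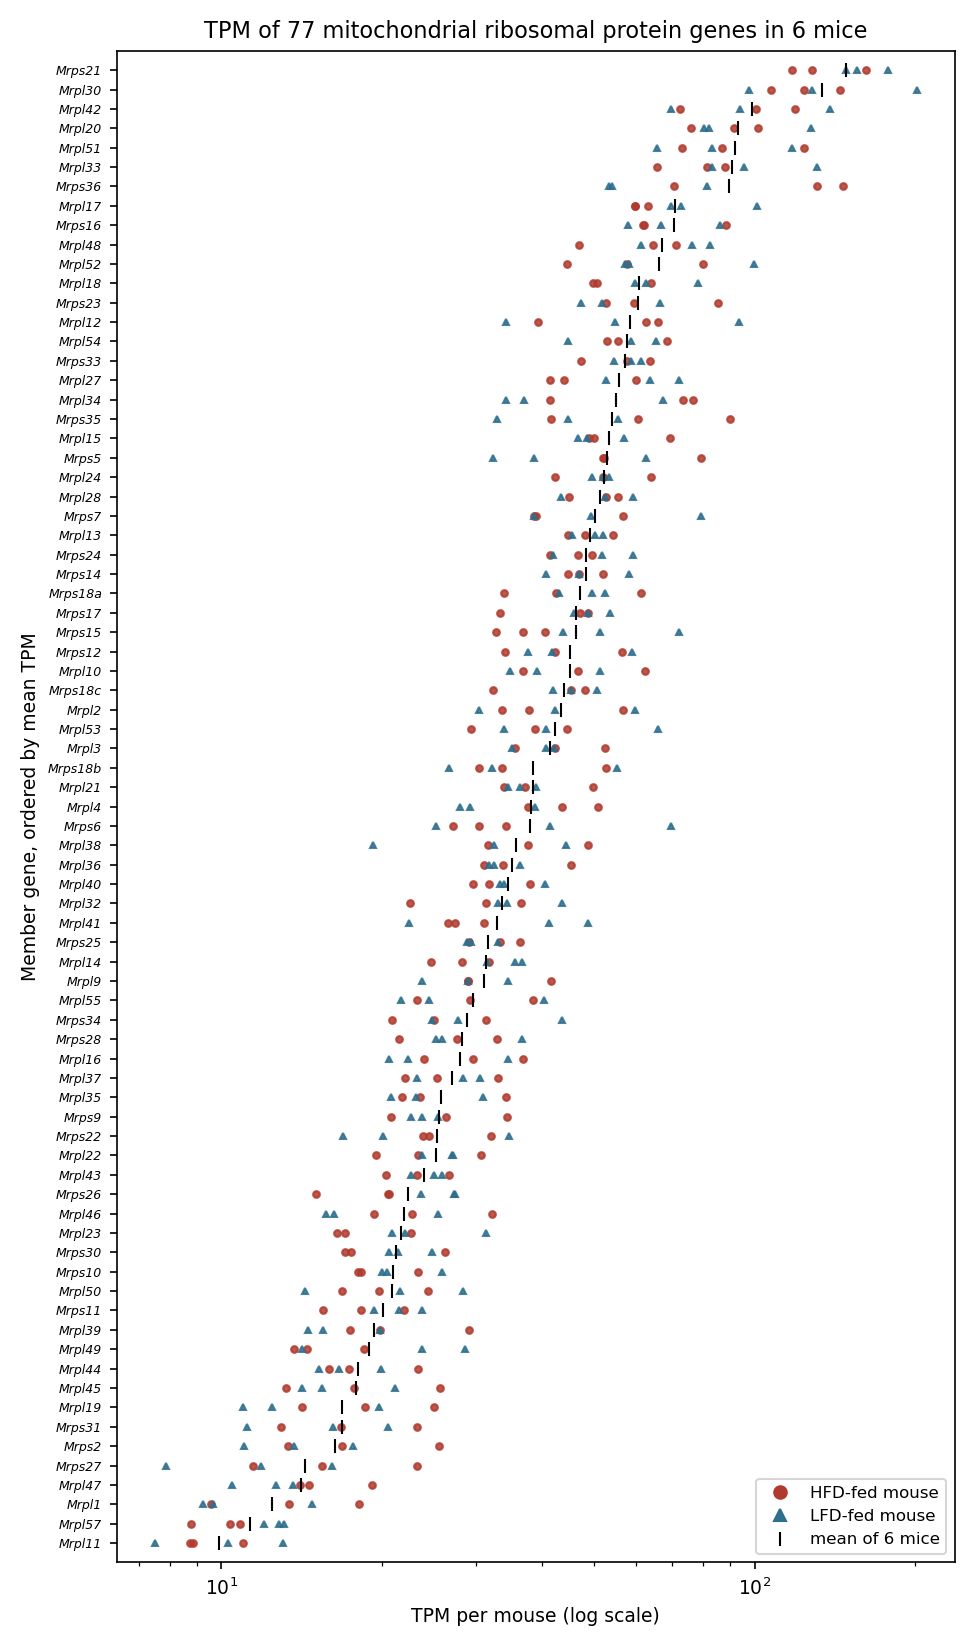
Level of each of the 77 genes in TPM (x axis, log scale) in each of the 3 HFD-fed (circles) and 3 LFD-fed mice (triangles), with the genes ordered by their mean over the 6 mice (vertical ticks). Genes span 9.91 to 148 TPM, while the circles and triangles of most genes are mixed.

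Paralogous genes were similar in level. *Mrps18a*, *Mrps18b* and *Mrps18c* descend from 1 bacterial ribosomal protein gene, and the product of the first sits in the large subunit. Only *Mrps18c* was classed here as having a bacterial homologue. These paralogues had mean levels of 47.1, 38.4 and 43.9 TPM over the 6 mice. Their ranges over the mice, 33.9 to 61.2, 26.8 to 55.2 and 32.4 to 50.7 TPM, overlapped. *Mrpl12*, whose product has been described to bind the mitochondrial RNA polymerase, was at 58.4 TPM, *Mrps12*, a protein of the decoding site, at 45.1 TPM and *Mrpl36*, a small protein of the large subunit, at 35.1 TPM. *Mrps34*, mutated in human mitochondrial disease, was at 28.9 TPM and *Mrps30* at 21.3 TPM.

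The balance of the subunits varied little between mice. The summed level of the 50 large-subunit genes was 1.93, 1.90 and 1.97 times that of the 26 small-subunit genes in HFD 1 to HFD 3, and 1.88, 1.95 and 1.98 times in LFD 1 to LFD 3. The means were 1.93 ± 0.04 (SD, n = 3) and 1.94 ± 0.05 (SD, n = 3), and the diets overlapped. Over the same mice, the summed level of all 77 genes ranged from 2863 to 3994 TPM.

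The genes lie on 17 chromosomes, most often on chromosome 11 with 10 genes. In the GENCODE annotation of the GRCm38 build, exons of 32 of the 77 genes overlap an exon of another gene, on the opposite strand for 27 and on the same strand for 8. *Mrpl46* and *Mrps11*, of the large and the small subunit, lie head to head on chromosome 7 and overlap by 413 bases. The strand setting of the counting is not given in the sources used here, so the counts of such genes may hold reads of the partner.

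The promoters show what the members share in sequence. RefSeq (GRCm38.p6) gave 74 promoters for 68 of the 77 genes, each 300 bases long, from 250 bases before the start of transcription to 50 from it. They were searched on both strands for the letters of sites for factors known from nuclear genes of mitochondrial proteins. A match to NRF1 (GCGC, any base, then TGCGC) was in 17.6% of the member promoters, in 6.38% of the promoters of protein-coding genes and in 4.60% of all promoters. A match to the ETS site bound by GABP (CCGGAAG) was in 33.8%, 11.6% and 8.86%, respectively. A match to YY1 (AAGATGGC) was in 16.2%, 3.05% and 2.75%. At least 1 of the 3 was in 42 member promoters (56.8%), against 18.9% of protein-coding and 14.7% of all promoters, and 8 member promoters had 2 or more kinds.

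Letters of general promoter elements were nearer to the background. The NF-Y box (CCAAT) was in 40.5% of member promoters and 38.2% of protein-coding ones, the E-box (CACGTG) in 9.46% and 7.84%, and the GC box (GGGCGG) in 52.7% and 46.2%. The TATA box (TATAAA) was in 6.76% of member promoters and 12.6% of protein-coding ones. Base composition was not matched between these sets of promoters, and a match says only that the letters are there. Matches of ETS and YY1 overlapped in 0 member promoters.

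**Figure D2:**
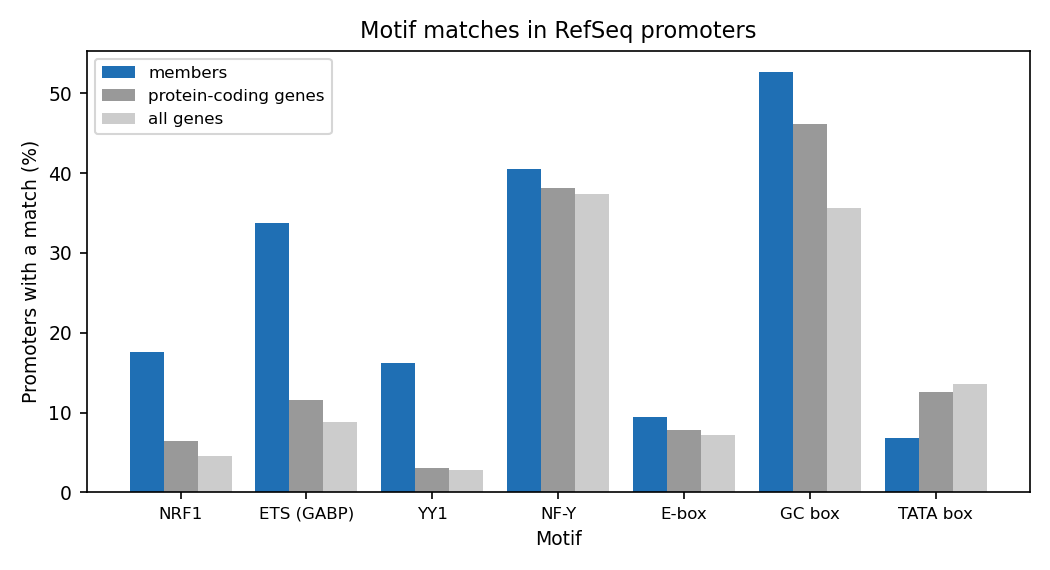
Share of promoters with at least 1 match on either strand (y axis, percent) for 7 motifs, in 74 member promoters, 21263 promoters of protein-coding genes and 32851 promoters of all genes. The bars of NRF1, ETS and YY1 are taller for the members (17.6%, 33.8% and 16.2%) than for protein-coding genes (6.38%, 11.6% and 3.05%), and the TATA box bar is lower.

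Promoters of 5 genes are shown because they differ in which of the 3 motifs they hold, with 180 bases each from 150 before the start to 29 after the start base. *Mrps26* has 2 overlapping NRF1 matches and an ETS match, *Mrpl45* has 3 NRF1 matches, *Mrpl12* has 1, *Mrps18a* has an ETS and a YY1 match, and *Mrps36*, the gene with the highest fold change below, has none in its 300 bases. Capitals mark the matches, on either strand.
Mrps26, chr2:130563607-130563786, plus strand: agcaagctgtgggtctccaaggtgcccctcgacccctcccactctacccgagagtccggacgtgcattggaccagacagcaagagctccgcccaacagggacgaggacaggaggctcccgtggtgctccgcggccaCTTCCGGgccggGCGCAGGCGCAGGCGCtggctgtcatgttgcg
Mrpl45, chr11:97315566-97315745, plus strand: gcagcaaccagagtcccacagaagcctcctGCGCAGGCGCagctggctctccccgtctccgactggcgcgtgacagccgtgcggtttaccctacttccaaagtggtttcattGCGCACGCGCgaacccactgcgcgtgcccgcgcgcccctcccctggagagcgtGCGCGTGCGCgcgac
Mrpl12, chr11:120484487-120484666, plus strand: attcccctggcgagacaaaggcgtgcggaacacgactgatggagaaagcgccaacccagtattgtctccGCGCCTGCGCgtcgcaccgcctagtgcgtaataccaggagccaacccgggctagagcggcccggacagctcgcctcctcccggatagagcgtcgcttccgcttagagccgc
Mrps18a, chr17:46110854-46111033, plus strand: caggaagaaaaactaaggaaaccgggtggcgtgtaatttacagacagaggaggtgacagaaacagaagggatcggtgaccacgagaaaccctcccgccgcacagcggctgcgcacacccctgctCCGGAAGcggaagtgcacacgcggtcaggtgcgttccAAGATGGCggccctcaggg
Mrps36, chr13:100744630-100744809, minus strand: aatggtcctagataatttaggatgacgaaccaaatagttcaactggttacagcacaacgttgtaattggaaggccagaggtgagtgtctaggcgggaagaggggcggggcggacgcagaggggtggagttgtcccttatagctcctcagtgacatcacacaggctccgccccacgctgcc

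The median log2 fold change, HFD over LFD, was -0.08 for the 13 genes with an NRF1 match and 0.10 for the 55 without, 0.10 for the 25 with an ETS match and 0.07 for the 43 without, and 0.05 for the 12 with a YY1 match and 0.11 for the 56 without. For the GC box the medians were 0.06 for the 34 genes with a match and 0.18 for the 34 without. For the NF-Y box they were 0.06 for the 27 with and 0.10 for the 41 without. The E-box gave 0.07 for the 5 with and 0.07 for the 63 without, and the TATA box 0.05 for 5 and 0.07 for 63. These differences were not tested.

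The diets were then compared gene by gene, on the rounded expected counts with edgeR's quasi-likelihood test. Calls needed an adjusted p below 0.01 together with a log2 fold change beyond 1.5 in either direction (the same thresholds that were used originally). None of the 77 genes was called (0 of 77), and with 0% of the 17668 tested genes called this says nothing particular to them. At an unadjusted p under 0.05 there were again 0 of 77, against a background of 10.5% (6.62% lower and 3.86% higher in HFD-fed mice). DESeq2 called 0 of the 77 as well, against 2.03% of the genes it tested, with a smallest adjusted p of 0.533 among them. The diet differences of single genes could not be told from the spread between mice, which does not show that the levels were equal.

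The fold changes were small on both sides of 0. The log2 fold change was above 0 for 54 of the 77 genes (background 45.6%) and below 0 for 23, with a median of 0.10 against -0.05 over all genes tested. It passed 0.5 in size for 7 genes (9.09%), against 34.7% of all genes. For 11 genes it exceeded its standard error, and for 0 genes it exceeded 2 standard errors. The median was 0.11 for the large subunit and 0.08 for the small subunit. It was 0.07 for proteins classed as having a bacterial homologue and 0.13 for those classed as specific to mitochondria.

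**Figure D3:**
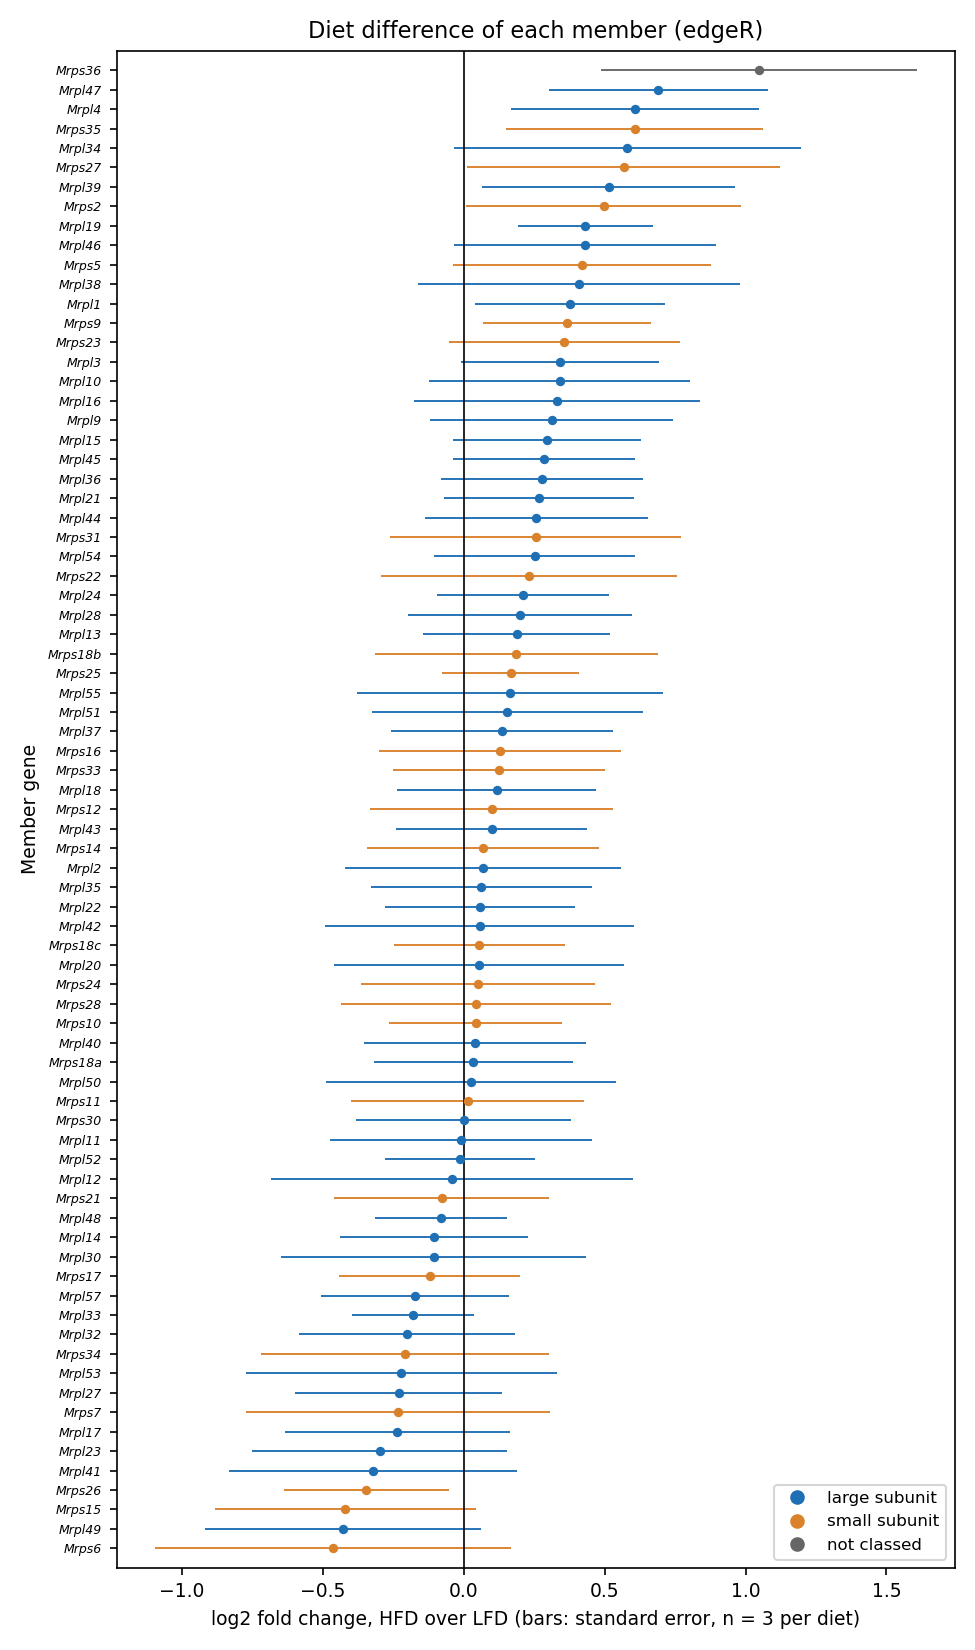
log2 fold change of each gene, HFD over LFD, from edgeR (x axis; bars, standard error; 3 mice per diet), coloured by subunit. Values run from -0.46 for *Mrps6* to 1.05 for *Mrps36*, and 0 of the 77 lie more than 2 standard errors from 0.

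*Mrps36* (GRCm38 chr13:100735955-100744659, minus strand) had the highest fold change. Its level was 131, 147 and 70.5 TPM in HFD 1 to HFD 3 and 81.3, 53.5 and 54.0 TPM in LFD 1 to LFD 3, with means of 116 ± 40.2 and 62.9 ± 15.95 TPM (SD, n = 3 each). HFD 1 and HFD 2 were above every LFD-fed mouse, while HFD 3 lay below LFD 1. The log2 fold change was 1.05 with a standard error of 0.56 (edgeR adjusted p = 0.584). Under the alternatives its adjusted p ran from 0.132 to 0.975 and its log2 fold change from 0.64 to 1.71. Reads shared with a pseudogene touch this gene, since *Mrps36-ps2* was given 77.6, 26.1 and 0 expected counts in HFD 1 to HFD 3 and 75.5, 0 and 0 in LFD 1 to LFD 3, against 324 to 1459 rounded counts for *Mrps36* itself.

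A further 5 genes followed at the upper end. *Mrpl47*, a large-subunit protein, had 14.6, 19.2 and 14.1 TPM in HFD-fed and 12.7, 13.6 and 10.5 TPM in LFD-fed mice, and its log2 fold change was 0.69 ± 0.39 (standard error; edgeR adjusted p = 0.616). Every HFD-fed mouse was above every LFD-fed mouse in TPM, but not in normalised counts. Its exons overlap those of *Ndufb5*, a complex I subunit, and *Actl6a* on the opposite strand. *Mrpl4*, a protein near the exit tunnel of the large subunit, had 43.5, 51.0 and 37.6 TPM against 38.7, 28.0 and 29.3 TPM. *Mrps35*, of the small subunit, had 60.6, 89.8 and 41.6 TPM against 55.4, 44.6 and 32.9 TPM. In both genes HFD 3 lay below LFD 1. The log2 fold changes of *Mrpl4*, *Mrps35*, *Mrpl34* and *Mrps27*, the last a small-subunit protein of the pentatricopeptide repeat family, were 0.61, 0.61, 0.58 and 0.57 (edgeR adjusted p from 0.728 to 0.839).

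At the lower end stood *Mrps6*, of the small subunit. Its level was 34.2, 30.4 and 27.2 TPM in HFD-fed and 69.6, 41.3 and 25.3 TPM in LFD-fed mice, so LFD 1 was the highest and LFD 3 the lowest mouse of all. The log2 fold change was -0.46 (standard error 0.63, edgeR adjusted p = 0.885), and without LFD 1 it was 0.47. Exons of *Slc5a3*, an inositol transporter gene, lie in the same place on the same strand, which makes these counts uncertain. *Mrpl49*, *Mrps15*, *Mrps26*, *Mrpl41* and *Mrpl23* had log2 fold changes of -0.43, -0.42, -0.34, -0.32 and -0.30 (edgeR adjusted p from 0.782 to 0.907). The pseudogene *Mrpl23-ps1* was given 181 to 264 expected counts in a mouse, against 155 to 336 rounded counts for *Mrpl23* itself. The expected counts of *Mrpl23* were not whole in any of the 6 mice, so its values are uncertain.

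The scale mattered for whether the diets overlapped. In log2 CPM, the normalised counts, 0 of 77 genes had every HFD-fed mouse below every LFD-fed mouse (background 9.23%) and 0 had every HFD-fed mouse above (background 6.72%). In TPM, which is a share of the whole library, 4 genes lay below (background 11.6%) and 1 above (background 1.65%). The 4 were *Mrpl17*, *Mrpl57*, *Mrps15* and *Mrps26*, and the 1 above was *Mrpl47*. *Mrps15* had 36.8, 40.4 and 32.7 TPM in HFD-fed and 72.1, 51.3 and 43.7 TPM in LFD-fed mice. *Mrps26* had 15.1, 20.6 and 20.5 TPM against 27.3, 23.6 and 27.5 TPM. The median log2 fold change of the 77 genes was -0.03 on the log2(TPM + 1) scale, where 34 lay above 0 and the median over all genes was -0.18. Relative to the median of all genes, the 77 genes stood 0.15 higher on both scales with all mice. In edgeR this offset was 0.68 without LFD 1, 0.38 without HFD 3 and 0.16 without HFD 2. It was -0.02 without HFD 1, -0.01 without LFD 2 and -0.11 without LFD 3. Their summed level was 3273 ± 582 TPM in HFD-fed and 3345 ± 569 TPM in LFD-fed mice (SD, n = 3 each). Rescaled without mitochondrially encoded and ribosomal RNA genes, the sums were 5361 ± 822 and 4731 ± 1410 TPM, which turns the direction, and the diets overlapped on both scales.

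Which mouse was highest or lowest depended on the scale. In log2 CPM, LFD 1 was the highest of the 6 mice for 64 of the 77 genes (83.1%, against 27.9% of all genes) and LFD 3 was the lowest for 66 (85.7%, against 20.2%). In TPM, HFD 2 was the highest for 38 genes (49.4%, against 10.0% of all genes) and LFD 1 for 33 (42.9%, against 8.11%), while LFD 3 was the lowest for 30 (39.0%, against 6.41%) and HFD 1 for 24 (31.2%, against 45.2%). Within the HFD, the mean log2 CPM of the 77 genes was 5.20, 4.94 and 4.45 in HFD 1 to HFD 3, and within the LFD it was 5.46, 4.40 and 4.08 in LFD 1 to LFD 3. In log2 CPM, the SD within a diet was larger among LFD-fed mice for 77 of 77 genes (77.2% of all genes), and the median SD was 0.38 with HFD and 0.71 with LFD. On the log2(TPM + 1) scale this held for 35 of 77 genes (68.6% of all genes), and the median SD was 0.29 with HFD and 0.28 with LFD.

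*Mrpl12* had 1 of the wider ranges in counts. Its rounded counts were 1346, 1047 and 672 in HFD 1 to HFD 3 and 1622, 768 and 407 in LFD 1 to LFD 3. The LFD-fed mice thus lay on both sides of all HFD-fed mice, and the log2 fold change was -0.04 (standard error 0.64, edgeR adjusted p = 0.991). *Mrpl33* varied less, with 833, 783 and 847 counts in HFD-fed and 813, 801 and 965 in LFD-fed mice and its log2 fold change was -0.18 ± 0.22 (standard error; edgeR adjusted p = 0.862).

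**Figure D4:**
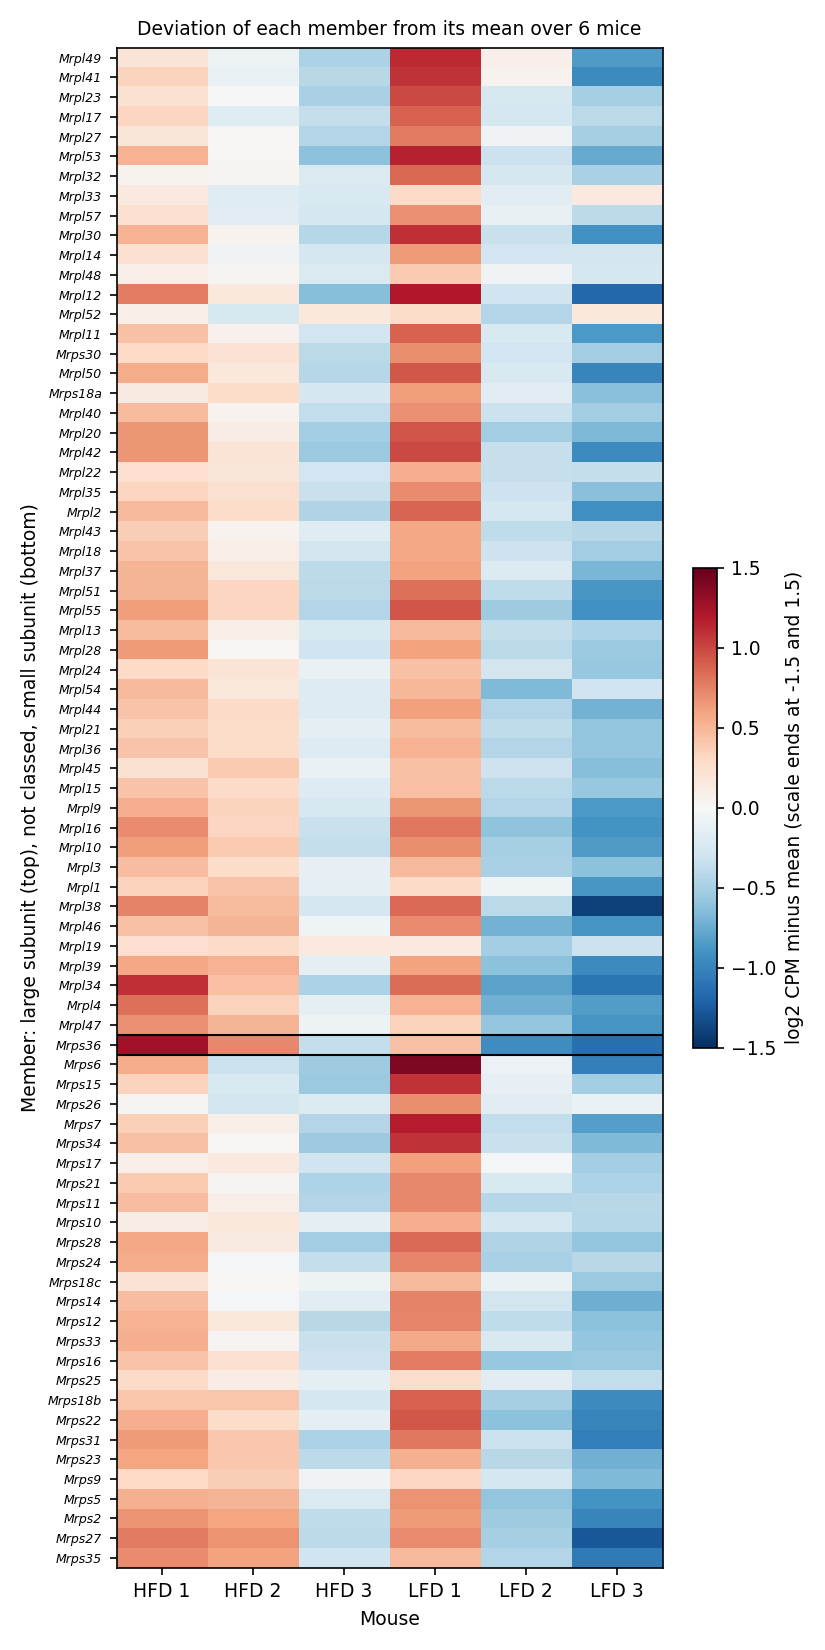
Deviation of each gene's log2 CPM from its mean over the 6 mice (colour), with genes in rows, large subunit on top and small subunit at the bottom, ordered by fold change, and mice in columns. The LFD 1 column holds the highest value in 64 of 77 rows and the LFD 3 column the lowest in 66. In TPM these numbers are 33 and 30.

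The direction of the diet difference depended on single mice, and most of all on LFD 1. Without LFD 1, 75 of 77 log2 fold changes lay above 0 (background 46.7%), the median rose from 0.10 to 0.64, and 27 genes had an unadjusted p under 0.05, all of them higher in HFD-fed mice (background 6.01%). The smallest edgeR adjusted p was then 0.193, for *Mrpl46*, so 0 genes were called. Every HFD-fed mouse was above both remaining LFD-fed mice for 41 genes (background 13.9%). Leaving out LFD 3 gave a median of -0.14 with 29 genes above 0, and leaving out HFD 1 or LFD 2 gave -0.06 and -0.07 with 31 and 32 genes above 0. Without HFD 2 or HFD 3 the median was 0.09 and 0.30, with 51 and 64 genes above 0.

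The level of other cell types moved between the same mice. Brown adipocyte markers summed to 13200, 10897 and 3626 TPM in LFD 1 to LFD 3 and to 11730, 13544 and 6232 TPM in HFD 1 to HFD 3. *Fabp4* made up 8136, 7354 and 2624 TPM of these sums in LFD 1 to LFD 3, and the mean log2 CPM of the list was 8.43, 8.12 and 6.59 in HFD 1 to HFD 3 and 7.82, 5.58 and 4.85 in LFD 1 to LFD 3. The 12 macrophage markers summed to 638, 2752 and 4615 TPM in LFD 1 to LFD 3 and to 1999, 2514 and 4150 TPM in HFD 1 to HFD 3. LFD 1 was thus the mouse with the lowest sum of macrophage markers. LFD 3 had the lowest sum of brown adipocyte markers and the lowest share of mitochondrially encoded counts. Skeletal muscle markers did not follow this order, with 6401, 15580 and 2228 TPM in LFD 1 to LFD 3. The 12 T and NK cell markers summed to 18.45, 40.42 and 50.75 TPM in HFD 1 to HFD 3. In LFD 1 to LFD 3 they summed to 2.75, 15.89 and 14.49 TPM. The 8 endothelial markers summed to 154, 566 and 654 TPM in HFD 1 to HFD 3 and to 192, 355 and 399 TPM in LFD 1 to LFD 3. The part of these differences in the values of the 77 genes was not tested.

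Same-numbered mice deviated together across genes (r = 0.498, 0.229 and 0.522), although no source used here states that they were matched pairs. The replicate number was made a block because of these correlations, so every result given with the block rests on a pairing taken from these same data. Blocking on it in edgeR moved more genes past the unadjusted threshold. In that fit, 60 of 77 log2 fold changes were above 0, with a median of 0.18. *Mrps36*, *Mrpl47*, *Mrpl4*, *Mrps35*, *Mrpl34* and *Mrps27* had an unadjusted p under 0.05, which is 6 of 77 and all higher in HFD-fed mice, against a background of 17.5% (8.75% higher and 8.76% lower). At an adjusted p under 0.05 the block passed 0 of 77 genes (background 1.04%). They are the 6 genes with the highest fold change of the fit without the block. The smallest edgeR adjusted p was 0.132, for *Mrps36*. Taken pair by pair, the median difference in log2 CPM, HFD minus LFD, was -0.26 in pair 1, where 12 genes lay above 0, 0.50 in pair 2 with 70 and 0.38 in pair 3 with 72. All 3 pairs were above 0 for 12 genes (15.6%, against 21.1% of all genes) and below 0 for 3, *Mrpl33*, *Mrps15* and *Mrps26* (3.90%, against 21.3%).

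Genes that build or serve the mitochondrial ribosome were compared in the same way. Of all tested genes, 10.5% passed an unadjusted p of 0.05 without the replicate block and 17.5% with it. The 6 ribosomal proteins that go by other names had a median log2 fold change of 0.09, from -0.06 for *Dap3* to 0.49 for *Ptcd3*, and 0 of 6 passed an unadjusted p of 0.05 (1 with the replicate block). Of 26 genes for assembly and ribosomal RNA maturation, 18 were above 0, with a median of 0.14. Their extremes were *Trub2*, a pseudouridine synthase, at -0.74 and *Afg3l2*, a protease that processes a large-subunit protein, at 0.69, and 0 of 26 passed (1 with the block). The 15 translation factors had a median of 0.21, from -0.04 for *Mtfmt* to 0.79 for *Taco1*, an activator of the translation of cytochrome oxidase subunit I, and 0 of 15 passed. With the block, 14 of the 15 were above 0, with a median of 0.34, and 5 passed, all higher in HFD-fed mice, against a background of 8.75%.

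The mitochondrial aminoacyl-tRNA synthetases, which charge transfer RNAs, had a median of 0.20 over 17 genes, with 0 past an unadjusted p of 0.05 (1 with the block). *Cars2* was the highest at 0.93 and *Lars2* the lowest at -0.55. *Lars2* stood at 1915 to 4255 TPM, and it makes up most of the summed level of that list. The other genes of the list stood at 0.96 to 45.7 TPM. Whether all reads counted for *Lars2* come from that gene was not tested. Among 12 genes for mitochondrial transcription and RNA processing, only *Pnpt1*, an RNA-degrading enzyme, passed an unadjusted p of 0.05, at a log2 fold change of 0.61 (edgeR adjusted p = 0.385), while *Hsd17b10* was the lowest at -0.56.

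Regulators of mitochondrial biogenesis include the factors whose letters were searched in the promoters. *Nrf1* had a log2 fold change of 0.13, *Gabpa* of 0.51 and *Yy1* of -0.02. *Gabpa* and *Ppargc1b*, a coactivator of such factors, were the 2 of 10 with an unadjusted p under 0.05, both higher in HFD-fed mice (background 3.86%). With the block, 4 of 10 passed, all higher in HFD-fed mice (background 8.75%). *Gabpa* had 27.1, 48.7 and 35.9 TPM in HFD-fed and 23.0, 33.7 and 46.7 TPM in LFD-fed mice. The diets thus overlapped in TPM for *Gabpa*. *Ppargc1b* had 10.8, 20.9 and 8.29 TPM in HFD-fed and 4.83, 4.55 and 2.80 TPM in LFD-fed mice, with every HFD-fed mouse above every LFD-fed one and a log2 fold change of 1.495 (edgeR adjusted p = 0.425). *Sp1* was the lowest of the list at -0.19.

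The messenger RNAs that this ribosome translates had larger fold changes than its proteins. All 13 protein-coding RNAs of the mitochondrial genome had a log2 fold change above 0, with a median of 1.09, from 0.81 for *mt-Co3* to 1.40 for *mt-Nd3*, and in all 3 pairs every one of them was higher in the HFD-fed mouse. None passed an unadjusted p of 0.05 without the block (0 of 13), and 11 did with it, all higher in HFD-fed mice (background 8.75%), with a smallest edgeR adjusted p of 0.0754. All 13 come from 1 genome, whose share of the counts differed between mice as given above, so they are not 13 independent values. The 2 mitochondrial ribosomal RNAs, *mt-Rnr1* and *mt-Rnr2*, had log2 fold changes of 0.67 and 0.57 (edgeR adjusted p = 0.891 and 0.947). These libraries were depleted of ribosomal RNA, so the levels of both depend on that step.

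Within a mouse, the summed level of the 77 genes was 2.52%, 3.32% and 5.29% of that of the 13 mitochondrially encoded proteins in HFD 1 to HFD 3, and 5.11%, 5.07% and 12.7% in LFD 1 to LFD 3. The HFD-fed mouse was lower in all 3 pairs, but HFD 3 lay above LFD 1 and LFD 2. A list of 45 nuclear genes for complex I subunits and assembly factors was taken by symbol (*Ndufa*, *Ndufb*, *Ndufc*, *Ndufs* and *Ndufv*). Against it, the 77 genes came to 30.6%, 36.9% and 52.5% in HFD-fed and 36.5%, 44.9% and 68.0% in LFD-fed mice. This was again lower in 3 of 3 pairs and overlapping. The genes of this list had a median log2 fold change of 0.33, with 41 of 45 above 0 and 0 past an unadjusted p of 0.05. They ran from -0.10 for *Ndufaf3* to 0.93 for *Ndufa4l2*. Whether each product, that of *Ndufa4l2* included, belongs to complex I was not checked. With the block, 45 of 45 were above 0, with a median of 0.51, and 13 passed, all higher in HFD-fed mice (background 8.75%).

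The proteins of the cytosolic ribosome had a mean log2 CPM of 7.42, 7.21 and 7.49 in HFD 1 to HFD 3 and 7.49, 7.15 and 7.58 in LFD 1 to LFD 3. Their summed level ran from 22494 to 52009 TPM, a wider relative range than that of the 77 genes, while their mean log2 CPM had a narrower one. Of 75 tested genes, 26 had a log2 fold change above 0, with a median of -0.07, from -0.29 for *Rpsa* to 0.61 for *Rps23*, and 0 of 75 passed an unadjusted p of 0.05. Many of these genes have near-identical processed copies, so single values are uncertain. The summed level of the 77 mitochondrial ribosomal protein genes was 13.4%, 12.6% and 7.44% of that of the cytosolic ones in HFD 1 to HFD 3 and 15.3%, 8.85% and 5.65% in LFD 1 to LFD 3. The diets overlapped.

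**Figure D5:**
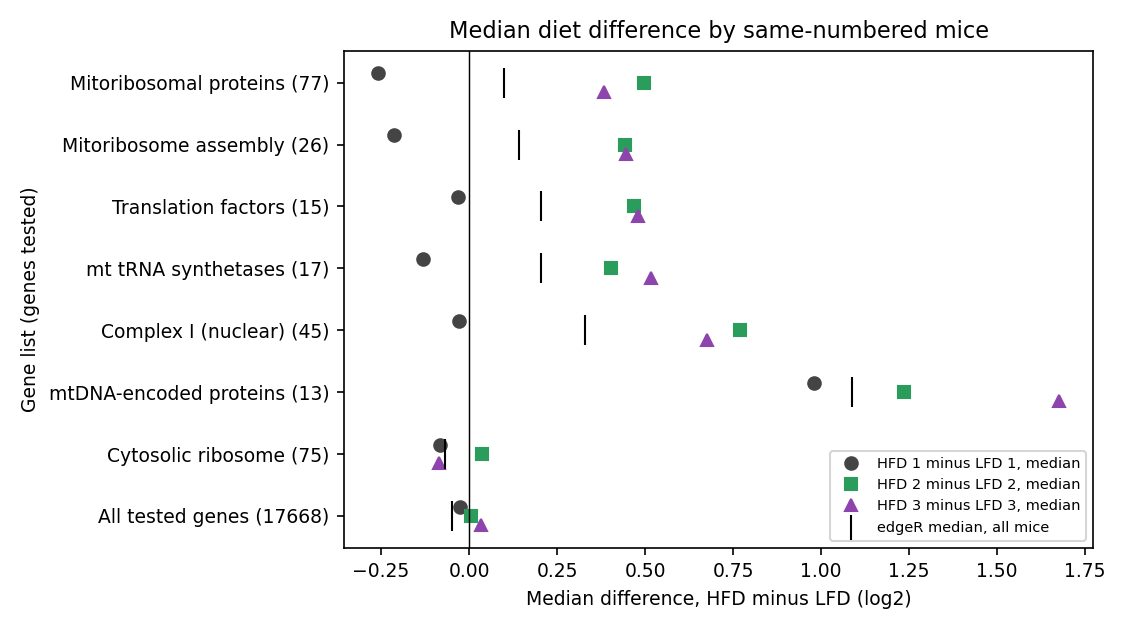
Median difference in log2 CPM between same-numbered mice, HFD minus LFD (x axis; symbols for pairs 1 to 3), and median edgeR log2 fold change over all mice (vertical ticks), for 7 gene lists and all tested genes. The mitochondrial ribosomal proteins lie at -0.26, 0.50 and 0.38, while the mitochondrially encoded proteins lie at 0.98 to 1.68 in the 3 pairs.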

How the data were processed

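Interscapular BAT from 3 HFD-fed and 3 LFD-fed mice was sequenced by the authors in single-end reads of 75 bases after removal of ribosomal RNA from total RNA. Per the labels and the study's methods, reads were trimmed with Trimmomatic 0.36 and quantified with RSEM 1.3.0 on GRCm38 with an Ensembl annotation. The authors deposited, per mouse, an expected count for every gene, which is not normalized and in which a read that matches several genes is split among those genes. TPM values were deposited as well, the expected counts divided by effective length and scaled to a fixed total.

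Samples were grouped by the diet and replicate number of the labels. That the replicates were separate mice comes from the study's methods. No pair of mice of 1 diet was a repeated library (chi-square per degree of freedom 71.7 to 558). Total rounded counts of 17156991 to 21603487 set the precision of a value. The members have at least 155 counts in each mouse, so counting error is small beside the spread between mice.

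Expected counts were rounded and tested in R 4.3.3 with edgeR 4.0.16 (quasi-likelihood test, TMM normalization, filterByExpr, Benjamini-Hochberg adjustment over 17668 genes), with diet as the only term. The expected counts were whole in all mice, within 0.005, for 23 of the 77 members. Log2 CPM used a prior count of 2. The study used DESeq2 1.10.1, and here DESeq2 1.42.0 was an alternative, beside limma 3.58.1 on log2(TPM + 1), RLE size factors, no normalization factors, other count filters, omission of the mitochondrial genome and of ribosomal RNA genes, the replicate block and each mouse left out. The edgeR test was also run on simulated counts, drawn with the means and dispersions of these data. The planted fold changes were large and the mice shared no deviations. That run therefore says nothing about differences of the size seen in the members. For a single gene, the smallest exact permutation p for 3 mice against 3 is 0.1.

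The labels give numbers 1 to 3 in both diets. The deviations of same-numbered mice from their diet means correlated across genes with r = 0.498, 0.229 and 0.522, so the numbers were treated as a pairing, on the data and not on a stated match. Genes are not independent, and centring on the diet means makes the other r lower.

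The genes named are the 6 members with the highest mean TPM, the 6 with the lowest and the 6 with the highest fold change, *Mrps18a*, *Mrps18b*, *Mrps18c*, *Mrpl12*, *Mrps12*, *Mrps30*, *Mrps36*, *Mrpl36* and *Mrps34*, and the extremes of each companion list. *Mrpl11*, *Mrpl17*, *Mrpl57*, *Mrpl46*, *Mrps11*, *Mrpl45*, *Nrf1*, *Gabpa*, *Yy1*, *Plin1*, *Fabp4* and *Slc5a3* were added after their values were seen. The members and lists were chosen with earlier results of these data known. Subunits and bacterial homologues were assigned from general knowledge. Positions come from GENCODE M21 and promoters from RefSeq.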

Additional observations from a re-analysis of the deposited data

How the results depend on the processing

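No alternative called a member. Over all genes, DESeq2 called 411 and limma on log2(TPM + 1) called 1, beside 0 in edgeR, where 1851 genes had an unadjusted p under 0.05. The cause was not tested. Members whose diets did not overlap numbered 10 without normalization factors, all above (background 4.37%), 1 with at least 10 counts in every mouse, above (background 6.19%), 5 on the TPM scale, and 0 to 41 with a mouse left out, the highest without LFD 1. The median log2 fold change of the members was -0.14 to 0.64 with a mouse left out, the lowest without LFD 3 and the highest without LFD 1. The difference in summed TPM, HFD minus LFD, was -71.8 as deposited, -405 to 253 with a mouse left out, and 630 after rescaling without mitochondrially encoded and ribosomal RNA genes.

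The replicate block gave 0 member calls and a median of 0.18, and moved 6 members past an unadjusted p of 0.05. It turned *Mrpl12* to 0.18, *Mrpl30* to 0.10 and *Mrps30* to 0.069. Without normalization factors *Mrpl12* was 0.10, *Mrpl30* 0.039, *Mrps21* 0.0069 and *Mrps30* 0.10, and *Mrps30* was 0.0038 with RLE factors and 0.024 with at least 10 counts. On log2(TPM + 1), *Mrpl20* was -0.087, *Mrpl42* -0.021, *Mrps12* -0.060, *Mrps18a* -0.11 and *Mrps18c* -0.15.

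With a mouse left out, 17 of the 26 named members changed sign. The log2 fold changes ranged from -0.23 to 0.46 for *Mrps30*, -0.44 to 0.88 for *Mrpl12*, -0.46 to 0.70 for *Mrpl30*, -0.30 to 0.37 for *Mrps21*, -0.28 to 0.76 for *Mrpl20*, -0.29 to 0.81 for *Mrpl42* and -0.15 to 0.63 for *Mrps12*. They ranged from -0.21 to 0.46 for *Mrps18a*, -0.14 to 0.93 for *Mrps18b*, -0.16 to 0.37 for *Mrps18c*, -0.15 to 0.80 for *Mrpl51*, -0.51 to 0.52 for *Mrps34* and -0.57 to 0.31 for *Mrpl23*. For *Mrpl41*, *Mrpl49*, *Mrps15* and *Mrps6* they were -0.69 to 0.34, -0.79 to 0.22, -0.71 to 0.21 and -0.87 to 0.47. With 3 mice per diet and a median standard error of 0.41, a difference of the size seen in most members was not detectable.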
